A study of Homo sapiens with 6 samples.

Results

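Nonmuscle myosin II, actin, transgelin and tropomyosin form the contractile and structural actin filaments of non-muscle cells. This account covers 10 genes of that system, taken from a table of 57820 genes by their gene symbols: the myosin heavy chain genes MYH9, MYH10 and MYH14, the light chain genes MYL6 and MYL9, the actin genes ACTB and ACTG1, the transgelin genes TAGLN and TAGLN2, and the tropomyosin gene TPM1. All 10 symbols matched exactly 1 row. The genes were chosen by symbol with the fold changes and levels of the same 6 libraries known, so their differences between groups are given as a description, and the adjusted p-values are those of a fit over all 19676 genes tested.

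The cells were HEK293T, an established line of human embryonic kidney origin with the SV40 large T antigen. All 6 libraries came from cells with RfxCas13d, an RNA-guided nuclease that cleaves RNA complementary to its crRNA. The crRNA was non-targeting in the control group. In the other it was against mCherry, a fluorescent protein that human cells do not encode. Each group had 3 biological replicates. For the time after delivery, and for whether the cells also held mCherry mRNA, nothing was found in the labels. In bulk RNA, a smaller number of cells with a transcript and less of it per cell cannot be told apart.

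Myosin II is a hexamer of a pair of heavy chains, each of which carries an essential and a regulatory light chain. It pulls on actin filaments, and the heavy chain genes MYH9, MYH10 and MYH14 give the isoforms IIA, IIB and IIC. Tropomyosins lie along the filament and set which proteins can reach it, and transgelins are small calponin-related proteins that bind and bundle actin. Many of these genes are known targets of SRF, a transcription factor whose coactivators, the MRTF proteins, are held back by free actin monomers.

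Library totals lay between 21321850 and 25906275 counts. Libraries also differed within groups. The share of counts from 7SK, a non-coding RNA without a poly(A) tail, was below 1% in non-targeting replicate 1 and mCherry-targeting replicates 1 and 2, and above it in the other three. The slope of log2 expression on transcript GC content was from -0.0065 to 0.18 per 10 percentage points in the non-targeting and from -0.10 to -0.043 in the mCherry-targeting libraries, so the groups did not overlap in it. Genes known from HEK293T were present: non-targeting means were 607 CPM for IGF2BP1, 369.7 CPM for VIM and 99.4 CPM for LIN28B. CPM is the count scaled to library size after TMM, a correction for differences in library composition. Fibroblast markers summed to 17.4 to 22.3 CPM in the non-targeting and at most 19.5 CPM in the mCherry-targeting libraries. Most of this was COL1A1, at 15.3 ± 2.47 and 13.4 ± 1.72 CPM (SD, n = 3 each), while DCN and FAP had 0 counts. Blood cell markers summed to at most 2.66 CPM, with PTPRC, HBB and HBA1 at 0, and hepatocyte markers to at most 0.552 CPM, with TTR and SERPINA1 at 0.

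Together the 10 genes took 0.353%, 0.420% and 0.450% of the counts in the non-targeting libraries and 0.328%, 0.387% and 0.379% in the mCherry-targeting libraries, in order of replicate number, as in all such series of values here. The groups overlapped, at 0.407% ± 0.0496 and 0.365% ± 0.0317 (SD, n = 3 each). ACTB and ACTG1 made up 74.0% to 77.6% of these counts in the non-targeting and 75.1% to 75.8% in the mCherry-targeting libraries.

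Of the 10 genes, 9 passed the filter on low counts and were tested. Log2 fold changes, here always mCherry-targeting over non-targeting, were below 0 in 7 and above 0 in 2, with a median of -0.19, against a median of -0.0037 over all genes tested. Of all genes tested 50.6% were below 0. The edgeR quasi-likelihood test called 0 of the 9 at a Benjamini-Hochberg adjusted p under 0.05, where 0.0102% of all tested genes were called. An unadjusted p under 0.05 was found for 2 of the 9, MYH14 and TAGLN, both lower, and the share of all tested genes that were lower with such a p was 6.09%. In the same 2 genes the highest mCherry-targeting library was below the lowest non-targeting one, which held for 9.37% of all genes tested, and in the other 7 the groups overlapped. The transcripts were richer in GC than most, with a median of 57.0% over the 9 against 48.1% over all genes tested. After a correction for GC content their median log2 fold change was -0.064, with 6 of 9 below 0.

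**Figure D1:**
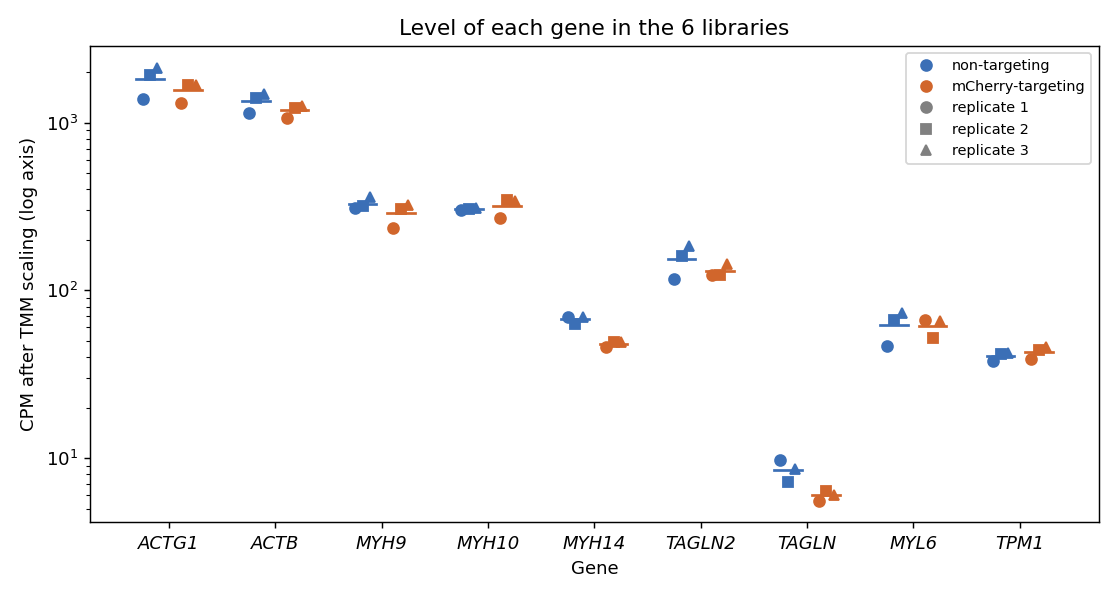
Level of each of the 9 detected genes in CPM after TMM scaling (log axis), with a point per library, the marker giving the replicate number and the line the mean over 3 libraries. MYH14 and TAGLN are the genes whose mCherry-targeting points (46.1 to 49.2 CPM and 5.58 to 6.35 CPM) all lie below the non-targeting ones, while the actin genes spread widely within each group.

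MYH14 encodes the heavy chain of myosin IIC, the isoform best known from epithelial cells. It held 69.3, 63.0 and 69.3 CPM in the non-targeting and 46.1, 49.2 and 49.1 CPM in the mCherry-targeting libraries. The 3 mCherry-targeting libraries differed little among themselves, and the lowest non-targeting library was well above the highest of them. Means were 67.2 ± 3.61 and 48.1 ± 1.75 CPM (SD, n = 3 each), 1.40-fold lower. In the edgeR fit this was a log2 fold change of -0.48 ± 0.083 (SE), and its p ranked 6 among 19676 genes, with an adjusted p of 0.193. It lay below 0 in each of the 18 alternative fits, from -0.53 to -0.31. In 6 of them it was called, and the adjusted p ranged from 0.00115 to 0.669. Those fits also called more of all genes: 1.68% with no filter, 1.59% with DESeq2, 3.62% with a term for the 7SK share (0.869% lower), 0.198% with that term and GC correction, 6.14% with the replicate number as a block, and 8.98% without non-targeting replicate 1 (3.31% lower).

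The GC content of MYH14 was 63.7%, the highest of the 9 tested genes, and the 949 protein-coding genes within 2.5 percentage points of it with a mean CPM of at least 5 had a median log2 fold change of -0.18. After GC correction MYH14 was at -0.32 ± 0.084 (edgeR adjusted p = 0.669). Among libraries with a 7SK share below 1% the log2 ratio of means was -0.54, with 1 non-targeting and 2 mCherry-targeting libraries. Above 1% it was -0.43, with 2 and 1. Without non-targeting replicate 1 the gene was called at -0.46 (edgeR adjusted p = 0.0102), and both remaining non-targeting libraries then have a 7SK share above 1%. MYH14 (ENSG00000105357.11) spans 50188186 to 50310544 of chromosome 19, plus strand (all coordinates GRCh38). An antisense gene that shares 457 of its exon bases had 0 counts in every library.

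MYH9 encodes the heavy chain of myosin IIA, which drives contraction, adhesion and migration in most cells. Its levels were 308, 316 and 362 CPM in the non-targeting and 237, 307 and 321 CPM in the mCherry-targeting libraries. The lowest value was mCherry-targeting replicate 1, and replicate 3 of that group lay within the non-targeting range, so the groups overlapped. The log2 fold change was -0.19 ± 0.12 (edgeR adjusted p = 0.453), -0.064 without mCherry-targeting replicate 1, and -0.047 ± 0.10 after GC correction. Genes of like GC content (MYH9 58.6%) had a median of -0.16.

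MYH10 encodes the heavy chain of myosin IIB, the isoform with the slower cycle that is abundant in neural tissue. The non-targeting libraries were tightly grouped at 300.1, 305 and 308 CPM. The mCherry-targeting libraries lay on both sides of them, at 271, 347 and 339.8 CPM, with replicate 1 again the lowest. The log2 fold change was 0.070 ± 0.10 (edgeR adjusted p = 0.769), 0.18 without mCherry-targeting replicate 1, 0.0068 without replicate 2 and 0.021 without replicate 3 of that group. MYH9 (ENSG00000100345.16) lies on chromosome 22 from 36281277 to 36388067 and MYH10 (ENSG00000133026.8) on chromosome 17 from 8474205 to 8630761, both on the minus strand. MYH10 shares 72 exon bases with NDEL1 on the other strand, which had a log2 fold change of -0.015 ± 0.081.

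The heavy chain genes can be set against each other within a library, where the library total cancels. Per kilobase of transcript, MYH9 and MYH10 were at similar levels, and MYH14 was lower than both. The ratio of MYH9 to MYH10 was 1.05, 1.07 and 1.21 in the non-targeting and 0.896, 0.911 and 0.971 in the mCherry-targeting libraries. So MYH9 was above MYH10 in every non-targeting library and below it in every mCherry-targeting one. Means were 1.11 ± 0.0858 and 0.926 ± 0.0401 (SD, n = 3 each), a difference of -0.26 in log2. The GC content of MYH10 is 49.0%, and genes within 2.5 percentage points of it had a median log2 fold change of -0.048, against -0.16 for genes like MYH9. In the fit with GC correction MYH9 was at -0.047 and MYH10 at 0.097 ± 0.096, closer to each other than without it. The ratio of MYH14 to MYH10 was 0.260, 0.233 and 0.253 against 0.191, 0.160 and 0.162, also without overlap. MYH14 by itself did not overlap either, and how often ratios of other gene pairs lack overlap was not tested. The ratio of MYH14 to MYH9 overlapped between the groups, at 0.225 ± 0.0192 and 0.185 ± 0.0246 (SD, n = 3 each).

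MYL6 encodes the essential light chain of nonmuscle myosin II, which stiffens the lever arm of the motor. It held 46.2, 66.8 and 73.3 CPM in the non-targeting and 66.6, 51.9 and 65.7 CPM in the mCherry-targeting libraries. Non-targeting replicate 1 was the lowest of the 6 libraries and replicate 3 of the same group the highest, so the spread within the group exceeded any shift between groups. The log2 fold change was -0.018 ± 0.16 (edgeR adjusted p = 0.968), and its sign turned in several alternative fits. MYL6 (ENSG00000092841.14) spans 56158161 to 56163496 of chromosome 12 on the plus strand. It shares 514 exon bases with SMARCC2 on the other strand and 89 with MYL6B on its own strand, and whether shared bases bear on its counts was not tested. The rule for such reads was not given in the sources used here.

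MYL9, which encodes a regulatory light chain whose phosphorylation switches myosin on, had 0 counts in all 6 libraries. A count of 0 allows at most 0.118 to 0.136 CPM in a library, taken as 3 counts and covering counting error only, and for reads that the authors' counting would assign to the gene. Whether that counting bears on the 0 was not tested. It was the 1 gene of the 10 that was not tested. MYL9 (ENSG00000101335.5) spans 36541484 to 36551447 of chromosome 20, plus strand. Its span overlaps DLGAP4-AS1 on the minus strand, which had 82 to 105 counts and shares no exon base with it, and 2547 of 19263 protein-coding genes in the table had 0 counts throughout. The regulatory light chain genes MYL12A and MYL12B were present, at 40.4 ± 6.11 and 35.4 ± 3.30 CPM in the non-targeting and 36.3 ± 5.08 and 39.1 ± 2.01 CPM in the mCherry-targeting libraries (SD, n = 3 each). Their log2 fold changes were -0.15 ± 0.13 and 0.14 ± 0.098 (edgeR adjusted p = 0.588 and 0.493).

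ACTB and ACTG1 encode beta- and gamma-actin, the cytoplasmic actins, whose proteins are nearly identical. Their mRNAs can be told apart, as the first 60 coding bases show, with the 10 bases that differ in capitals (GENCODE 29 transcripts, GRCh38, 5′ to 3′; chr7:5529598-5529657 for ACTB and chr17:81512295-81512354 for ACTG1, both on the minus strand).
ACTB: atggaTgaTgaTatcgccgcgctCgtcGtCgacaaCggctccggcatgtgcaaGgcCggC
ACTG1: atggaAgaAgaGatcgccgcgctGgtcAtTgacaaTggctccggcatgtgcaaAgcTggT
Over the 1125 coding bases 98 differ, an identity of 91.3%. Of the windows of 50 bases in the mRNA, 10.9% in ACTB and 4.03% in ACTG1 also occur in a transcript of another gene. The table lists 46 actin copies, which together held 430 to 613 counts per library, between 0.504% and 1.07% of the counts of ACTB and ACTG1.

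ACTB ranked 26 and ACTG1 16 by mean CPM among all genes of the table. ACTB held 1136, 1405 and 1476 CPM in the non-targeting and 1071, 1229 and 1252 CPM in the mCherry-targeting libraries. ACTG1 held 1389, 1920.3 and 2126 CPM in the former and 1316, 1675 and 1674 CPM in the latter. For both genes replicate 1 was the lowest library of its group, and the non-targeting replicate 1 lay below mCherry-targeting replicates 2 and 3. The log2 fold changes were -0.18 ± 0.12 for ACTB and -0.22 ± 0.16 for ACTG1 (edgeR adjusted p = 0.494 and 0.515). After GC correction they were -0.064 ± 0.11 and -0.078 ± 0.14. Without non-targeting replicate 1 the ACTG1 value was -0.38, and without replicate 3 of that group it was -0.092.

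The actin genes moved together over the libraries, with a Pearson correlation of 0.99 between their log2 CPM (n = 6 libraries, which share depth and composition differences). The ratio of ACTG1 to ACTB per kilobase was 1.22, 1.36 and 1.43 in the non-targeting and 1.22, 1.36 and 1.33 in the mCherry-targeting libraries. It was above 1 in all 6, and its means of 1.34 ± 0.110 and 1.30 ± 0.0708 (SD, n = 3 each) overlapped. ACTB (ENSG00000075624.9) lies on chromosome 7 from 5527147 to 5563784 and ACTG1 (ENSG00000184009.5) on chromosome 17 from 81509971 to 81523847, both on the minus strand. The genes that overlap them had at most 32 counts in a library.

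TAGLN encodes transgelin (SM22), an actin-bundling protein that is a classic marker of smooth muscle and of activated fibroblasts. Its counts were 215, 182 and 204 in the non-targeting and 134, 160 and 142 in the mCherry-targeting libraries. In CPM these were 9.76, 7.17 and 8.61 against 5.58, 6.35 and 6.03. The groups did not overlap, although the gap between non-targeting replicate 2 and mCherry-targeting replicate 2 was small. Means were 8.51 ± 1.30 and 5.98 ± 0.389 CPM (SD, n = 3 each), 1.42-fold lower. This was a log2 fold change of -0.51 ± 0.15 (edgeR adjusted p = 0.202).

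The TAGLN value was below 0 in all 18 alternative fits, from -0.62 to -0.37, and was called in 1 of them, with a term for the 7SK share (edgeR adjusted p = 0.0316). DESeq2 gave it no adjusted p, so it could not be called in that fit. After GC correction it was -0.38 ± 0.16 (edgeR adjusted p = 0.690), and genes of like GC content (57.2%) had a median of -0.15. It was -0.71 among libraries with a 7SK share below 1% (1 non-targeting against 2) and -0.39 above it (2 against 1). TAGLN (ENSG00000149591.12) spans 117199321 to 117204782 of chromosome 11, plus strand and shares 446 exon bases, 11.4% of its exons, with PCSK7 on the minus strand. PCSK7 had 1760 to 2440 counts and a log2 fold change of 0.21 ± 0.092 (edgeR adjusted p = 0.299). Whether shared bases bear on the TAGLN counts was not tested.

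TAGLN2 encodes transgelin-2, the relative expressed outside muscle. It held 117, 161 and 183 CPM in the non-targeting and 123, 123 and 144 CPM in the mCherry-targeting libraries. Non-targeting replicate 1 was the lowest of the 6, so the groups overlapped. The log2 fold change was -0.24 ± 0.14 (edgeR adjusted p = 0.425) and -0.11 ± 0.11 after GC correction. Without non-targeting replicate 1 it was called at -0.40 (edgeR adjusted p = 0.0167), in the fit that called 8.98% of all genes. TAGLN2 (ENSG00000158710.10) spans 159918107 to 159925732 of chromosome 1, minus strand. Of its windows of 50 bases 9.32% also occur in the pseudogene TAGLN2P1, whose counts were at most 0.485% of those of TAGLN2.

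Per kilobase of the longest transcript TAGLN2 exceeded TAGLN 38.2 ± 11.7-fold in the non-targeting and 44.8 ± 4.59-fold in the mCherry-targeting libraries (SD, n = 3 each). With the length of the RefSeq mRNA (1477 bases for TAGLN, against 3298 for its longest transcript) the ratios were 17.1 ± 5.24 and 20.1 ± 2.06. Genes of the smooth muscle list lay on both sides of TAGLN in CPM. MYH11, the smooth muscle myosin heavy chain gene, had 15 counts over all 6 libraries, DES 22, MYOCD 8, ACTG2 4 and ACTC1 2. SMTN was at 41.2 ± 3.10 and 39.6 ± 2.80 CPM in the non-targeting and mCherry-targeting libraries, and LMOD1 at 9.66 ± 0.934 and 9.10 ± 1.25 CPM (SD, n = 3 each). ACTA2, smooth muscle actin, was at 13.7 ± 2.37 and 14.7 ± 1.66 CPM (SD, n = 3 each), with a log2 fold change of 0.10 ± 0.15 (edgeR adjusted p = 0.765).

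TPM1 encodes a tropomyosin with many splice forms in muscle and non-muscle cells. It held 38.0, 41.5 and 42.4 CPM in the non-targeting and 39.1, 44.0 and 46.2 CPM in the mCherry-targeting libraries. The groups overlapped, and the log2 fold change was 0.084 ± 0.095 (edgeR adjusted p = 0.695). Its GC content of 45.9% was the lowest of the 9. TPM1 (ENSG00000140416.15) spans 63042632 to 63071915 of chromosome 15, plus strand, and its antisense gene TPM1-AS had at most 5 counts in a library.

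**Figure D2:**
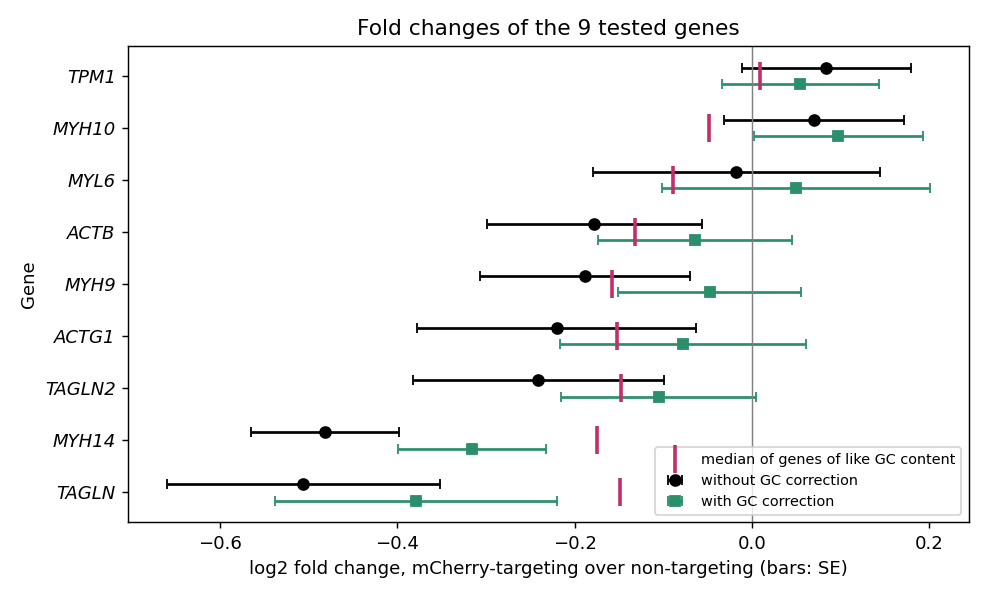
Log2 fold change (mCherry-targeting over non-targeting) of the 9 tested genes from edgeR, without (black circles) and with (green squares) GC correction, with SE bars; the vertical tick is the median over protein-coding genes within 2.5 percentage points of the gene's GC content. MYH14 and TAGLN lie farther below 0 than genes of like GC content (-0.48 against -0.18 and -0.51 against -0.15), while the actin genes lie within 1 SE of that median.

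Ordered by level per kilobase of the longest transcript, the non-targeting means were 803 ± 168 for ACTG1, 597 ± 79.8 for ACTB and 95.9 ± 20.8 for TAGLN2, in CPM per kilobase (SD, n = 3). MYH9 (43.5 ± 3.85), MYL6 (39.7 ± 9.03) and MYH10 (39.2 ± 0.50) followed, and neighbours in this order did not differ beyond their spread. TPM1 (10.3 ± 0.582) and MYH14 (9.73 ± 0.523) were also within their spread of each other, and TAGLN was lowest at 2.58 ± 0.393. In the mCherry-targeting libraries the same scale gave 689 ± 91.8 for ACTG1, 527 ± 43.9 for ACTB and 81.1 ± 7.36 for TAGLN2, and 10.9 ± 0.918 for TPM1, 6.97 ± 0.253 for MYH14 and 1.81 ± 0.118 for TAGLN. On this scale MYH14 was below TPM1 in every mCherry-targeting library. With RefSeq mRNA lengths MYL6 stood above MYH9 and MYH10 in the non-targeting group, at 68.9 ± 15.7, and TPM1 at 23.7 ± 1.34 was above MYH14. Merged exon lengths turned both orders. There MYH14 was above TPM1, at 6.47 and 3.16 in the non-targeting and 4.63 and 3.35 in the mCherry-targeting means. MYL6, at a non-targeting mean of 13.5, was below MYH9 (36.5) and MYH10 (33.8).

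The 9 genes did not vary as 1 block over the 6 libraries. In the non-targeting group 7 of them were lowest in replicate 1, and MYH14 and TAGLN were lowest in replicate 2. For non-targeting libraries, the log2 ratio of those above to that below a 7SK share of 1% was 0.34 for ACTB, 0.54 for ACTG1, 0.55 for TAGLN2 and 0.60 for MYL6. For mCherry-targeting libraries it was 0.12, 0.16, 0.22 and 0.15. The same ratio for MYH14 and TAGLN was at most 0.042, at -0.066 and -0.31 in the non-targeting and 0.042 and 0.015 in the mCherry-targeting libraries. Within a 7SK class the sign of the difference between groups held for MYH14, TAGLN, MYH9, MYH10 and TPM1. For MYH14 and TAGLN no other sign was possible, as every mCherry-targeting library lay below every non-targeting one. The sign turned for ACTB (0.017 below 1% and -0.20 above), ACTG1 (0.11 and -0.27), TAGLN2 (0.070 and -0.26) and MYL6 (0.36 and -0.092). Each class holds a group of 1 library, so these within-class values have no test.

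Likeness to other genes was measured by Pearson's r of log2 CPM over the 6 libraries, among 12263 other genes with a mean of at least 5 CPM. Closest to TAGLN were MEAK7 (0.993), UBN1, MIDEAS, ZNF609 and WASF2 (0.983). Closest to MYH9 were UBE4B (0.997), EVL, MSI1, TBC1D25 and SREBF2 (0.994). Such values rest on 6 libraries, and of the 12263 genes 72 had r above 0.95 with TAGLN and 100 with MYH9. Between members, TAGLN and MYH14 had r = 0.95, and TAGLN and TAGLN2 had r = 0.20. Each r was taken over both groups, so that of TAGLN and MYH14 includes the group difference found in each of them.

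The wider actin and myosin system was described with 9 lists of other genes. Of 105 symbols listed 101 were in the table and 93 were tested, of which 35 had a log2 fold change above 0 and 58 below, with a median of -0.087. The edgeR test called 0 of them. An unadjusted p under 0.05 was found for 16 higher and 15 lower genes, against 10.0% and 6.09% of all genes tested, and 17 higher and 18 lower genes had groups that did not overlap, against 12.6% and 9.37%. The direction went with GC content. With the 9 members included, 25 of 31 genes with a GC content of up to 45% were above 0, and 34 of 37 with over 55% were below. The medians of these classes were 0.22 and -0.19, and those of all protein-coding genes with a mean CPM of at least 5 were 0.16 and -0.16. Over the 102 genes Pearson's r of log2 fold change with GC content was -0.76 and Spearman's rank correlation -0.75, against -0.71 and -0.75 over 11080 protein-coding genes. Genes are not independent replicates, and these values carry no p.

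Regulators of myosin held values in both directions. Of 18 tested genes in the list of GTPases, kinases and myosin phosphatase subunits 7 were above 0 and 11 below, with a median of -0.045, and an unadjusted p under 0.05 was found for 7 higher and 2 lower genes, against 10.0% and 6.09% of all genes tested. The most abundant were RHOA, the GTPase that turns on ROCK kinases, at -0.20 ± 0.12, and the myotonic dystrophy-related kinases CDC42BPA and CDC42BPB at 0.28 ± 0.11 and -0.15 ± 0.081. Chosen after their values were seen, ROCK1 and ROCK2, which phosphorylate the regulatory light chain and its phosphatase, were at 0.40 ± 0.12 and 0.41 ± 0.12 (edgeR adjusted p = 0.200 and 0.198). PPP1R12A and PPP1CB, the targeting and catalytic subunits of myosin phosphatase, were at 0.43 ± 0.13 and 0.35 ± 0.080 (edgeR adjusted p = 0.202 and 0.193). PPP1CB had a GC content of 35.5% and a log2 fold change of 0.059 after GC correction, and the other 3 were at 0.24, 0.23 and 0.23.

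Crosslinkers and adhesion proteins gave 17 of 23 tested genes below 0, against 50.6% of all genes tested. Their median was -0.16, and -0.089 after GC correction. For 5 higher and 8 lower genes the unadjusted edgeR p was under 0.05, against 10.0% and 6.09% of all genes tested. FLNA, which encodes filamin A, was at 591 ± 57.0 and 473 ± 68.0 CPM (SD, n = 3 each), a log2 fold change of -0.32 ± 0.12. ENAH, an Ena/VASP protein that extends filaments, was at 552 ± 43.9 and 656 ± 6.25 CPM, or 0.25 ± 0.093. The edgeR adjusted p-values were 0.237 and 0.238. Also chosen after their values were seen, the zyxin gene ZYX was at -0.47 ± 0.11 and the filamin C gene FLNC at -0.42 ± 0.097 (edgeR adjusted p = 0.193 each), and at -0.30 and -0.26 after GC correction. The caldesmon gene CALD1, on filaments with tropomyosin, was at 0.38 ± 0.098 (edgeR adjusted p = 0.194) and 0.25.

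Genes of actin nucleation had 10 of 16 tested above 0 and a median of 0.063, at a median GC content of 42.1%. An unadjusted edgeR p under 0.05 was found for 4 higher and 1 lower of them, against 10.0% and 6.09% of all genes tested. The most abundant were WASF2 at -0.25 ± 0.083, ACTR2, a subunit of the Arp2/3 complex, at 0.22 ± 0.085, and the formin gene DIAPH1 at -0.13 ± 0.077. Genes of actin monomer binding and turnover had 4 of 12 above 0 and a median of -0.090. Of these, 0 had an unadjusted edgeR p under 0.05, against 16.1% of all genes tested. Among these, the profilin gene PFN1 was at -0.028 ± 0.12, the cofilin gene CFL1 at -0.16 ± 0.15 and CORO1C at -0.076 ± 0.087. Of the other tropomyosin genes 1 of 3 was above 0: TPM3, TPM4 and TPM2 were at -0.030 ± 0.098, -0.044 ± 0.081 and 0.017 ± 0.10. Of the other light chain genes 1 of 4 was above 0, and MYL6B was at -0.20 ± 0.17. Of the transgelin relatives, with 1 of 2 tested above 0, the calponin genes CNN3 and CNN2 were at 0.027 ± 0.090 and -0.39 ± 0.16, and TAGLN3 was not tested. In the list of muscle actins and smooth muscle genes 3 of 5 tested were above 0, and SMTN and LMOD1 were at -0.061 ± 0.096 and -0.087 ± 0.15.

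The SRF list had 8 of 10 tested genes below 0, with a median of -0.18 before and -0.072 after GC correction. SRF itself was at 95.1 ± 5.32 and 83.9 ± 1.99 CPM (SD, n = 3 each), a log2 fold change of -0.18 ± 0.079 (edgeR adjusted p = 0.290). Its coactivator gene MRTFA was at -0.17 ± 0.080, and FHL1 at -0.021 ± 0.094. The other coactivator gene, MRTFB, named after its value was seen, was at 0.17 ± 0.11. After GC correction SRF was at -0.027, MRTFA at -0.016 and MRTFB at 0.10. SRF binds the CArG box, and promoters were searched for it on both strands, in windows of 250 bases before to 50 after the start from RefSeq (GRCh38.p14). The box occurred in 1.29% of 35116 windows, and 1.60% of 27305 genes had it. Windows of 7 of the 10 members were searched, and of these only ACTG1 held the box. ACTB, TAGLN and MYL9 were not searched. In the pathway lists 15 of 90 genes with a window had it. The boxes of ACTG1 and of the 5 list genes with an unadjusted p under 0.05 are shown 5′ to 3′ on the gene's strand with the box in capitals, so that they can be set beside the fold changes.
ACTG1: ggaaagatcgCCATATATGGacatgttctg
SRF: ctggggctcaCCATATAAGGagcggcctcg
CNN2: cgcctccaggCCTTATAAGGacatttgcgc
FLNA: ggcaattttaCCAATTAAGGctttctcgcc
TGFB1I1: tggaggggagCCAAATTTGGcttgggtgaa
ROCK2: aaatgtacttCCTTAAATGGgtttactggg
These windows lie at chr17:81512874-81512903 (minus strand) for ACTG1, chr6:43171229-43171258 (plus) for SRF, chr19:1026509-1026538 (plus) for CNN2, chrX:154374709-154374738 (minus) for FLNA, chr16:31473144-31473173 (plus) for TGFB1I1 and chr2:11345491-11345520 (minus) for ROCK2. The box begins 94 bases before the start in ACTG1 and FLNA, 30 in SRF (with a further box at 240), 89 in CNN2, 51 in TGFB1I1 and 73 in ROCK2. Log2 fold changes were -0.22 ± 0.16 for ACTG1, -0.18 ± 0.079 for SRF, -0.39 ± 0.16 for CNN2, -0.32 ± 0.12 for FLNA, -0.44 ± 0.17 for TGFB1I1 and 0.41 ± 0.12 for ROCK2, so genes with the box lay in both directions. Of the 14 tested pathway genes with it, ACTG1 included, 2 were above 0 and 12 below, with a median of -0.14. Over all 183 tested genes with the box 77 were above 0 and 106 below, with a median of -0.058, and edgeR called 0 of them, while 31 had an unadjusted p under 0.05, a share near the 16.1% of all genes tested. A match of letters is a description and does not show binding.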

How the data were processed

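The deposited table, made by the authors, holds raw gene counts without normalization for 6 libraries. The submitters' processing notes name cutadapt 4.4, STAR 2.7.4a and hg19 (GRCh37). How reads were counted, and with which strand rule, was not given in the sources used here. Per the labels' protocols, poly(A) RNA was fragmented, primed at random, strand-marked with dUTP and amplified by PCR. Ensembl identifiers without version were matched to a reference name table and to GENCODE 29 on GRCh38, which gave symbols, coordinates, length and GC content of the longest transcript for 52338 of 57820 rows.

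Counts were scaled by TMM and tested with edgeR 4.0.16 in R 4.3.3 (filterByExpr, quasi-likelihood F test with robust dispersion, group as the only term, Benjamini-Hochberg adjustment over all 19676 genes). Log2 fold changes carry the SE of the fit. On simulated counts the fit recovered 98 of 100 genes changed 2-fold and 68 of 100 changed 1.5-fold, with 7 false calls. The simulation did not hold the GC and 7SK differences between these libraries. Alternatives were other scalings, filters, DESeq2 1.42.0, limma-voom (limma 3.58.1), a replicate block, a loess correction for GC content (span 0.5), a term for a 7SK share above 1%, and leaving out each library. The members and gene lists were chosen with earlier results of these data known. The genes named were all members, the 3 most abundant tested genes of each list (1 of them is not reported here), the 5 genes most like TAGLN and MYH9, and others said to be chosen after their values were seen.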

Additional observations from a re-analysis of the deposited data

How the results depend on the processing

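The count of called genes, 2 in the comparison as reported, was 1 with library sizes alone, with a filter at a mean CPM of 5, with GC correction and with limma-voom, 597 with no filter, 173 with DESeq2, 712 with the 7SK term and 39 with that term and GC correction. Leaving out a library gave 1 to 1806, the latter without non-targeting replicate 1. MYH14 was called with no filter (-0.49), DESeq2 (-0.49), the 7SK term (-0.49) and that term with GC correction (-0.36), and ranged from -0.53 to -0.45 without a library. TAGLN was called with the 7SK term (-0.55, edgeR adjusted p = 0.0316, over a range of 0.0316 to 0.690 in the fits that gave it an adjusted p, which DESeq2 did not). TAGLN2 ranged from -0.40 to -0.10 without a library, and was 0.0045 with the 7SK term and GC correction, where ACTG1 was 0.021. MYL6 turned to 0.0058 with library sizes alone, 0.050 with GC correction, 0.059 with replicate block and GC correction, 0.13 with the 7SK term and 0.17 with both of these, and ranged from -0.19 to 0.12 without a library. The cause of these shifts was not tested. The replicate block gave 1209 calls, MYH14 among them (-0.48; edgeR adjusted p = 0.0116), and 6 with GC correction. Whether libraries of the same number belong together was not settled. Deviations from the group mean correlated at 0.36, -0.018 and 0.55 for numbers 1 to 3. Non-targeting replicates 1 and 3 correlated best with the mCherry-targeting replicate of the same number. Non-targeting replicate 2 correlated best with mCherry-targeting replicate 3 (0.14). The log2 ratio of ACTG1 to ACTB, 0.42 and 0.38 in the non-targeting and mCherry-targeting libraries, was 0.27 and 0.24 with RefSeq mRNA length and 0.66 and 0.62 with merged exons. That of TAGLN2 to TAGLN, 5.20 and 5.48, was 4.04 and 4.32 with RefSeq length, and 5.10 in the mCherry-targeting libraries with merged exons. Without the 50 most abundant genes, which include ACTB and ACTG1, the members' share was 0.108% and 0.101%. Among the tested members TAGLN had the fewest counts, 134 to 215 per library.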
